A study of Mus musculus with 4 samples.

Results

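The replication-dependent histone genes were taken as every gene whose symbol in both deposited tables began with Hist1h, Hist2h, Hist3h or Hist4h. This gave 67 of the 26130 genes listed. By the class written in the symbol, 6 encode linker histone H1, 19 encode H2A, 18 H2B, 11 H3 and 13 H4. By cluster, 55 lie in Hist1 on chromosome 13, 9 in Hist2 on chromosome 3, 2 in Hist3 on chromosome 11, and Hist4h4 lies alone on chromosome 6. One member of the H2A class, Hist1h2al, is annotated as a processed pseudogene and stands apart from the cluster on chromosome 13. RNA was sequenced from mouse embryonic stem cells of the line E14 (strain 129P2/OlaHsd), wild type and Zfp57-/-, and of the line JB1 (strain JF1/B6), wild type and Zfp57-/-, with 1 library for each. ZFP57 is a zinc finger protein known for keeping DNA methylation at imprinted loci. All cells grew in serum with leukemia inhibitory factor on gelatin, without feeder cells. The sources used here do not say how the knockout was made or whether each knockout line was 1 clone.

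Replication-dependent histones wrap the DNA that is copied in S phase: H2A, H2B, H3 and H4 form the core of the nucleosome and H1 binds the linker between cores. Most of their mRNAs end in a conserved stem-loop in place of a poly(A) tail. The stem-loop binding protein SLBP and the U7 small nuclear RNP direct the cut that forms this end. The libraries were selected for poly(A) RNA, so the levels below are those of histone RNA that this selection retained, and they do not measure the whole histone mRNA of a cell.

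The stem-loop is shown for members named below, because it is the element that sets these mRNAs apart from poly(A) mRNA. The motif, read as GGC, any base, CTTTT, any base, AG, any base and GCC, was searched on the transcript strand and found in an annotated GENCODE M21 transcript of 41 of the 67 members. In each sequence the stem and loop, 16 bases, stand in capitals, with up to 5 flanking bases on each side in lower case.
Hist1h1c: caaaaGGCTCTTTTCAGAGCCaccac
Hist3h2a: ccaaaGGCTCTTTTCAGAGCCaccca
Hist2h2ac: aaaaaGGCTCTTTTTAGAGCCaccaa
Hist1h2bb: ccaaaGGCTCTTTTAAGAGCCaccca
Hist2h3c1: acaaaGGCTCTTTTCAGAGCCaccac
Hist1h4c: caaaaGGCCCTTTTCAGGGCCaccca
Hist1h4i: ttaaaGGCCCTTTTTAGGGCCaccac
The 32 matching members of H1, H2A, H2B and H3 all carried the stem GGCTCT with AGAGCC, and the 9 matching H4 members all carried GGCCCT with AGGGCC. The loop was TTTC in 25 of the 32 and in 7 of the 9. Hist2h2ac was the single H2A member with the loop TTTT, and the other H4 loop, TTTT, is seen in Hist1h4i. A missing match says only that the letters are not in the annotated transcript.

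Upstream sequence is shown for members that led the reads of their class, 250 bases before the annotated start (RefSeq, GRCm38.p6, all on the + strand). Capitals mark matches, in either orientation and counted also where they overlap, to the CCAAT box, the TATA box (TATAAA) and the octamer (ATTTGCAT), an element known from H2B promoters.
Hist1h1a, chr13:23763418-23763667, + strand: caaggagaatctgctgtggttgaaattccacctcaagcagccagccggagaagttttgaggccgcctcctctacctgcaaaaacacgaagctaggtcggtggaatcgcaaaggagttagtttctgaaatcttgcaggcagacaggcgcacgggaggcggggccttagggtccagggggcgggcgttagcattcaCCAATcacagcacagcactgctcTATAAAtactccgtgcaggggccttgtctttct
Hist3h2a, chr11:58954435-58954684, + strand: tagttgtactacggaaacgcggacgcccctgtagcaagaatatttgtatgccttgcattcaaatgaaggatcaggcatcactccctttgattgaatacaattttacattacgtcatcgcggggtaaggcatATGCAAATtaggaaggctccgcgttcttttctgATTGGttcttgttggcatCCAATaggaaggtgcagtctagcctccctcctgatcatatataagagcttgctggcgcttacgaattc
Hist2h2bb, chr3:96269450-96269699, + strand: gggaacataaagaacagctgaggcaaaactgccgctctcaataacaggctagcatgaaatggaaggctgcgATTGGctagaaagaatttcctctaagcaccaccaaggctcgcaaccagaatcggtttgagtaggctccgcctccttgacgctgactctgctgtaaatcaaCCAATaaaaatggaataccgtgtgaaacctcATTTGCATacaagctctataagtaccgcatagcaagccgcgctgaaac
Hist1h4d, chr13:23581318-23581567, + strand: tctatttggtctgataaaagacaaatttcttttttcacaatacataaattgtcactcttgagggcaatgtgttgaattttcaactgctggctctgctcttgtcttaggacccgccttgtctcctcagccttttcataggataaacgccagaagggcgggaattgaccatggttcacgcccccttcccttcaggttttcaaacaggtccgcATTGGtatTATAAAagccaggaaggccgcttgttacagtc
RefSeq entries were matched for 61 members, and motifs were counted in windows from 250 bases before to 50 after the start. CCAAT was present in 52 of 61 members (85.2%) against 37.4% of all 32851 promoters. It was present in all members with an entry of H1, H2A, H2B and H3 but in 3 of 12 H4 members. TATAAA was present in 35 (57.4%, against 13.6% of all promoters). ATTTGCAT was present in 14 (23.0%, against 1.74%), 7 of 18 H2A and 7 of 16 H2B members, and in no member of the other classes. These are matches of letters and do not show that a factor binds.

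Levels are RPM, the reads of a gene scaled to a library total of 1000000 reads, recovered from the log2 values in the tables. The listed genes held between 26801865 and 66849394 reads per library. Zfp57 was 135 and 51.8 RPM in the E14 libraries, wild type first, and 796 and 42.9 RPM in the JB1 libraries, so reads of the gene remained in both knockouts. All 9 embryonic stem cell markers were measured in both lines, and 8 were lower in the E14 knockout (median -0.12) and 6 in the JB1 knockout (median -0.24). Pou5f1 was 480, 442, 925 and 940 RPM in the same order, and Nanog was 228, 137, 693 and 362 RPM. Klf4 and Utf1 differed at least 2-fold in JB1 (410 and 164 RPM, and 61.4 and 170 RPM). Summed over 8 fibroblast markers the levels were 1.60, 2.15, 7.62 and 13.5 RPM, with Dcn at 0 in all 4 libraries, and over 6 primitive endoderm markers they were 7.79, 5.77, 34.5 and 42.6 RPM. Their part in the results below was not tested. A difference in RPM between these bulk libraries can come from fewer cells that carry the RNA or from less RNA per cell, and these cannot be told apart.

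Histone reads were 2.67-fold more frequent in the E14 knockout library than in its wild type, and every class was higher there. All 67 genes together were 935 RPM in the E14 wild type library and 2499 RPM in E14 Zfp57-/-. In JB1 the same sum was 39.6 RPM in wild-type cells and 28.0 RPM in Zfp57-/- cells. The direction was thus opposite in the lines, and the level was far lower in JB1, 23.6-fold lower than in E14 among the wild types and 89.2-fold lower among the knockouts. These values set across tables were not tested. The genes listed held 53.1% and 53.7% of the library total in E14, wild type first, and 68.6% and 68.9% in JB1. Intervals given with ratios are exact 95% intervals (Clopper-Pearson) for counting error only. They do not cover the spread between cultures, since each group was 1 library. No molecular identifiers are described, so reads are not counts of molecules.

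H4, the class with the steepest difference in E14, summed to 147 RPM without the knockout and 735 RPM with it, 4.99-fold higher (4.87 to 5.11). H2A summed to 50.04 and 215 RPM, 4.29-fold higher (4.12 to 4.48). H3 summed to 90.9 and 287 RPM, 3.15-fold higher (3.05 to 3.26). H2B summed to 414 and 899 RPM and was 2.17-fold higher (2.14 to 2.21). Linker histone H1 differed least, at 232 and 364 RPM, 1.57-fold higher (1.53 to 1.60). The 5 intervals did not overlap one another, so the classes differed in ratio by more than counting error between these libraries.

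All 5 sums were lower in the JB1 knockout library, and H1 differed most. H1 was 13.5 and 6.05 RPM, wild type first, 2.23-fold lower (2.01 to 2.48). H3 was 3.77 and 2.79 RPM, 1.35-fold lower (1.13 to 1.61), and H2A was 10.3 and 8.60 RPM, 1.20-fold lower (1.08 to 1.33). H2B was 8.19 and 7.25 RPM, 1.13-fold lower (1.01 to 1.26). For H4, at 3.84 and 3.33 RPM, the interval of the 1.15-fold lower value (0.978 to 1.36) included 1. The directions of H2A and H3 each rested on 1 gene: on the log2 scale, H2A without Hist3h2a was 0.071 higher in the knockout, and H3 without Hist2h3c1 was 0.18 higher. H4, whose interval included 1, was 0.0089 without Hist1h4i, so its lower sum rested on 1 gene too. H2B without Hist1h2bc was -0.094. Without Hist1h1c the H1 value moved from -1.16 to -0.79 on the log2 scale, and that of all members from -0.50 to -0.28.

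**Figure D1:**
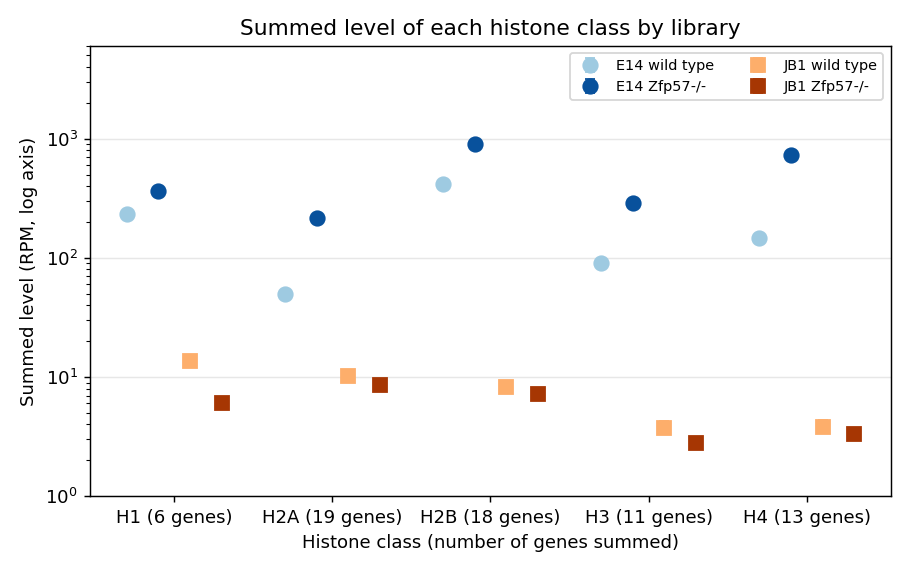
Summed level of each histone class (vertical axis, RPM, log axis) in the 4 libraries, with the number of genes summed beside each class name. Bars are exact 95% counting intervals and most are smaller than the symbols; in every class the E14 knockout lies above its wild type, and both JB1 libraries lie below both E14 libraries.

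The make-up of the histone reads differed between the lines as well as between the genotypes. H2B held 44.3% of the histone reads in E14 wild type (43.8 to 44.7) and 36.0% in the knockout (35.7 to 36.2). H4 held 15.8% (15.4 to 16.1) and 29.4% (29.2 to 29.6). H2A went from 5.35% (5.15 to 5.56) to 8.59% (8.46 to 8.73), and H3 from 9.73% (9.46 to 9.997) to 11.5% (11.3 to 11.6), while H1 went from 24.9% (24.5 to 25.3) to 14.6% (14.4 to 14.7). These shares do not depend on the scaling of a library, so in E14 the knockout library held relatively more H4, H2A and H3 and relatively less H2B and H1. In JB1, H1 held 34.1% of the histone reads in the wild type (32.3 to 35.9) and 21.6% in the knockout (20.1 to 23.2). H2A held 26.0% (24.4 to 27.7) and 30.7% (29.0 to 32.5), a far larger share than in E14. H2B held 20.7% (19.2 to 22.2) and 25.9% (24.2 to 27.6). H3, at 9.52% (8.45 to 10.7) and 9.97% (8.87 to 11.2), differed by less than counting error in JB1. The intervals of H4, 9.70% (8.62 to 10.9) and 11.9% (10.7 to 13.2), overlapped, which does not show that its shares were equal.

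**Figure D2:**
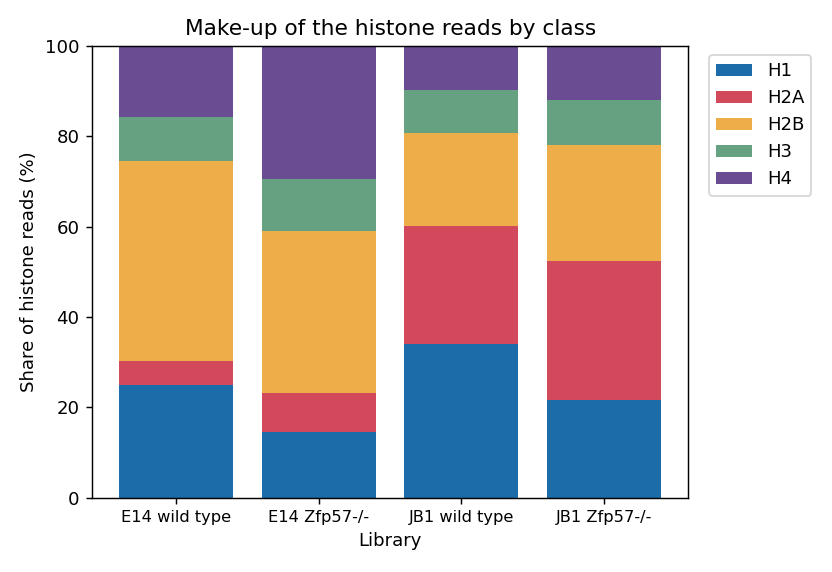
Share of the histone reads held by each class (vertical axis, %) in the 4 libraries, stacked to the whole. H2B holds the most reads in both E14 libraries, with 44.3% and 36.0%, and H2A is a far larger part of the JB1 libraries than of the E14 libraries.

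Read sums do not compare levels between classes, whose genes differ in length, so levels were set side by side per kilobase of coding sequence. In E14 wild type the core classes were unequal on this scale, at 7.14 RPM per coding kb for H2A, 60.1 for H2B, 19.7 for H3 and 36.7 for H4. In the knockout the values were 30.7 for H2A, 130.4 for H2B, 62.0 for H3 and 183 for H4. In JB1 they lay closer together, at 1.47, 1.19, 0.816 and 0.957 RPM per coding kb in the wild type and 1.23, 1.05, 0.604 and 0.829 in the knockout. H1 was 59.7 and 93.5 in E14 and 3.47 and 1.56 in JB1. Bases outside the coding sequence can hold reads too, so this scale is a rough one.

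Each cluster was higher in the E14 knockout library. Hist1 summed to 807 and 2222 RPM (2.75-fold higher), Hist2 to 100.4 and 211 RPM (2.10-fold), Hist3 to 19.0 and 47.8 RPM (2.51-fold), and Hist4 was 8.08 and 18.7 RPM (2.32-fold). The difference in E14 was therefore present on 4 chromosomes. Genes other than histones that lie within the Hist1 region on chromosome 13 had a median of 0.068 on the log2(RPM + 1) scale over 4 measured genes, and all 424 measured chromosome 13 genes that are not histone genes had a median of 0.012. In JB1 the genes other than histones within the Hist1 region were lower too, with a median of -0.15 over 7 measured genes, 4 of them lower and 1 at least 2-fold lower, and a sum of 91.7 and 60.1 RPM. The median of the 456 measured chromosome 13 genes that are not histone genes was -0.030 there. The part of these in the histone values was not tested. In JB1, Hist1 was 30.7 and 22.6 RPM, Hist2 was 5.03 and 3.69 RPM, and Hist3 was 3.90 and 1.64 RPM, 2.38-fold lower. Hist4h4 had 2 and 6 reads there.

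Single genes were counted on the scale log2((knockout RPM + 1)/(wild-type RPM + 1)), which understates the change of genes near 1 RPM, among genes with at least 1 RPM in a library of the line. In E14, 65 of the 67 members were measured and all 65 were higher, against 53.5% of all 12276 genes measured. At least 2-fold higher were 54, against 0.953% of all genes, and none was at least 2-fold lower, against 0.269%. By class these were 2 of 6 H1 genes, 17 of 18 H2A, 11 of 17 H2B, 11 of 11 H3 and 13 of 13 H4. The class medians were 0.78 for H1, 1.79 for H2A, 1.08 for H2B, 1.55 for H3 and 2.24 for H4, beside 0.022 over all genes. With 1 library per group there is no test of these differences. Hist2h2ab, Hist1h2an, Hist1h2ah, Hist1h2af, Hist1h2aa and Hist1h1t reached 1 RPM in the E14 knockout library only. For them the filter alone fixed a higher value, and they are named after their values were seen.

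**Figure D3:**
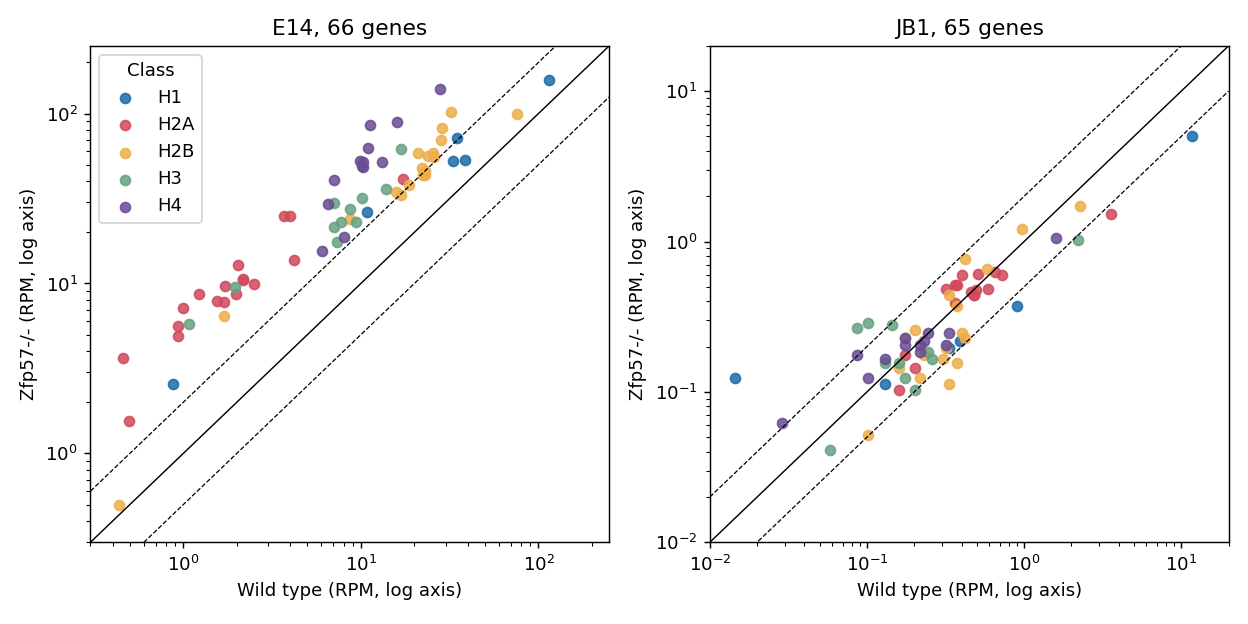
Level of each member in the wild type (horizontal axis) and the knockout (vertical axis) of E14 and JB1, in RPM on log axes, for members with reads in both libraries of the line and coloured by class. The solid line marks equal levels and the dashed lines 2-fold differences; all 66 E14 points lie above the solid line, while the 65 JB1 points lie on both sides of it.

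Within H1, the gene with the most reads was Hist1h1a (chromosome 13, 23855537 to 23856283 in mm9), at 114 and 157 RPM in the E14 libraries, wild type first, and 0.332 and 0.196 RPM in the JB1 libraries. Its E14 ratio was 1.38 (1.34 to 1.42), the lowest of its class. Hist1h1b was 38.6, 53.3, 0.130 and 0.113 RPM in the same order, with an E14 ratio of 1.38 (1.31 to 1.46). Hist1h1c (23830676 to 23832235) was the leading histone gene of JB1. Its E14 level was 34.9 and 71.8 RPM, 2.06-fold higher in the knockout (1.95 to 2.18). Its JB1 level was 11.7 and 5.03 RPM, 2.34-fold lower (2.08 to 2.62). It held 29.6% and 18.0% of all histone reads of the JB1 wild type and knockout libraries, whereas Hist1h1a led the E14 libraries with 12.2% and 6.30%. Hist1h1t, which encodes the testis-specific linker histone, had levels of 0.872 and 2.55 RPM in E14 and had 1 and 12 reads in JB1. Its E14 ratio, 2.92 (2.09 to 4.16) on 44 and 180 reads, was the highest of the class.

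The E14 ratios of 18 H2A genes with at least 50 reads in either library ran from 2.39 to 8.04, with a median of 5.18. Of these, Hist1h2af, Hist2h2ab, Hist1h2an and Hist1h2aa reached 50 reads in the knockout library only. Hist3h2a (chromosome 11, 58768187 to 58770176), the H2A gene with the most reads, lay at the low end: it was 17.3 and 41.4 RPM in E14, a ratio of 2.39 (2.21 to 2.58) that was the lowest of its class. In JB1 it was 3.57 and 1.53 RPM, 2.34-fold lower (1.90 to 2.89), and its span in the tables overlaps Trim17 on the same strand, so its reads are uncertain. Hist2h2aa1 and Hist2h2aa2 have identical coding sequences, and reads from one cannot be told from those of the other there. Hist2h2aa1 was 3.98, 25.1, 0.592 and 0.485 RPM, and Hist2h2aa2 was 3.70, 25.0, 0.361 and 0.392 RPM. The E14 ratios were 6.30 and 6.74 (5.79 to 7.87). Hist1h2af (chromosome 13, 23625775 to 23626173) had the steepest E14 ratio of all members with at least 50 reads in either library. It was 0.456 and 3.66 RPM in E14, 8.04-fold higher (5.24 to 12.9), on 23 and 259 reads. It was 0.361 and 0.515 RPM in JB1.

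The E14 ratios of 17 H2B genes with at least 50 reads ran from 1.31 to 3.76. Hist2h2bb (chromosome 3, 96073644 to 96082924) was 76.1 and 99.9 RPM in the E14 libraries and 0.376 and 0.155 RPM in the JB1 libraries. Its E14 ratio of 1.31 (1.26 to 1.36) was the lowest of any member with at least 50 reads, and in JB1 it was 2.43-fold lower (1.24 to 4.93) on 26 and 15 reads. Hist1h2be was 32.3, 101, 0.332 and 0.443 RPM, with an E14 ratio of 3.15; its span overlaps the gene model Gm11398 on the same strand. Hist1h2bb was 28.6, 81.9, 0.202 and 0.258 RPM, with an E14 ratio of 2.87. Hist3h2ba had the steepest ratio of the class, at 1.70 and 6.41 RPM in E14, 3.76-fold higher (2.98 to 4.79). It was 0.332 and 0.113 RPM in JB1, 2.93-fold lower (1.37 to 6.66).

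Among H3 genes, Hist1h3f (chromosome 13, 23635921 to 23636924) was 16.9, 61.6, 0.173 and 0.124 RPM, with an E14 ratio of 3.64. Hist1h3b was 13.8, 36.0, 0.260 and 0.165 RPM, and Hist1h3c was 10.1, 31.7, 0.144 and 0.278 RPM, with E14 ratios of 2.60 and 3.14. The E14 ratios of the class ran from 2.40 for Hist1h3d (2.14 to 2.71) to 5.40 for Hist2h3b (4.05 to 7.31), which was 1.07 and 5.77 RPM in the E14 libraries and had 4 and 4 reads in JB1. The 9 H3 genes of the Hist1 cluster had ratios from 2.40 to 4.85, and the H3 genes of the Hist2 cluster had ratios of 4.25 and 5.40.

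The 11 H4 genes of the Hist1 cluster had E14 ratios from 3.90 to 7.57, and the 15 H2B genes of that cluster had ratios from 1.89 to 3.15. The highest H2B ratio outside it, that of Hist3h2ba, had an interval (2.98 to 4.79) that reached into the H4 range. The leading member was Hist1h4d (chromosome 13, 23673467 to 23673859), at 27.7, 139, 0.217 and 0.206 RPM, with an E14 ratio of 5.00 (4.73 to 5.29). Hist1h4a was 16.1 and 89.5 RPM in E14, 5.57-fold higher. Hist1h4c (23789929 to 23790323) had the steepest ratio of the class and was 0.332 and 0.247 RPM in JB1. The H4 genes outside Hist1 differed less: Hist2h4 was 6.003 and 15.5 RPM in E14 (2.58-fold), and Hist4h4, the gene alone on chromosome 6 (136752589 to 136752900), had the lowest ratio, 2.32. Hist2h4 is named here after its value was seen.

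The JB1 libraries held few histone reads, and only 6 members reached 1 RPM in either. Of these 6, 1 was at least 2-fold lower in the knockout (Hist1h1c), against 1.58% of all 13132 genes measured. None was at least 2-fold higher, against 2.5%, and 1 of 6 was higher at all, against 51.5%. Hist2h3c1 was 2.21 and 1.03 RPM in JB1, 2.14-fold lower (1.66 to 2.79), whereas it was 7.01 and 29.8 RPM in E14, 4.25-fold higher. Its span overlaps Hist2h2aa1 on the same strand. Hist1h4i was 1.59 and 1.06 RPM, 1.497-fold lower (1.13 to 1.98), and 10.3 and 48.8 RPM in E14. Hist1h2bc was 2.28 and 1.71 RPM, 1.33-fold lower (1.07 to 1.67), and 25.7 and 55.3 RPM in E14. Hist2h2be was the exception in both lines. Its JB1 level was 0.968 and 1.22 RPM, 1.26-fold higher (0.923 to 1.72). Its E14 level was 0.436 and 0.495 RPM, 1.14-fold higher (0.648 to 2.03), and both intervals included 1. It was the single member with a lower level in both E14 libraries than in both JB1 libraries, a description across tables.

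Below 1 RPM the JB1 genes went both ways. Of 59 members with reads that stayed under 1 RPM in both JB1 libraries, 25 had a ratio above 1. Among all genes at such levels, 4347 of 6593 did, so the members lay above 1 less often. The counting interval lay above 1 for 4 (Hist1h2br, Hist1h3g, Hist1h3h and Hist1h1t), against 17.3% of the 6593 genes at such levels. It lay below 1 for 4 (Hist1h1d, Hist2h2bb, Hist3h2ba and Hist1h2bp), against 6.23%. Hist1h3g had 6 reads in the wild type and 26 in the knockout, a ratio of 3.09 (1.24 to 9.19), and Hist1h3h had 7 and 28 reads, a ratio of 2.85 (1.22 to 7.74). These genes were named after their values were seen, and at such counts a single gene carries little weight.

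The JB1 reads lay mainly in genes with a long span in the tables. A canonical histone gene has a single short exon, and a span of 1000 bases or more means that the annotated gene runs on beyond it. There were 16 such members, and 5 of the 16 reached 1 RPM in the JB1 knockout library, against 1 of 51 shorter members. The long genes held 64.0% and 52.8% of the histone reads of the JB1 wild type and knockout libraries, beside 35.4% and 28.5% for E14. Their sums were 331, 713, 25.4 and 14.8 RPM, which made them 2.16-fold higher in the E14 knockout (2.12 to 2.19) and 1.72-fold lower in the JB1 knockout (1.60 to 1.84). The 51 shorter members summed to 604, 1786, 14.2 and 13.2 RPM, 2.96-fold higher in the E14 knockout (2.92 to 2.99). In JB1 they were 1.08-fold lower with an interval that included 1 (0.990 to 1.17). Most of the difference between the JB1 sums thus lay in the long genes, while in E14 both kinds were higher. A large part of it lay in 1 long gene, Hist1h1c, at 11.7 and 5.03 RPM in JB1. The long genes did not all go the same way. The JB1 ratios of the 10 with at least 50 reads ran from 0.414 to 1.82, with a median of 0.858. The split by span was chosen after values of these data were seen. Not every member with a long annotated end beyond the stem-loop reached 1 RPM in JB1. In GENCODE M21 the transcripts of Hist1h1c, Hist3h2a and Hist2h3c1 run on for 840, 1643 and 1167 bases beyond the stem-loop. Those of Hist4h4, Hist1h2be and Hist1h1e run on for 2445, 1861 and 1153 bases, and these genes were all under 1 RPM in JB1. The spans of Hist4h4 and Hist1h1e in the tables, 312 and 748 bases, are shorter than these ends, so reads there may not have been counted. Hist1h2be has a span of 37383 bases. Whether a long end goes with JB1 level was not tested.

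Near-identical copies limit what single genes can show. Over 66 members with a coding sequence, a median of 72.8% of all 50-base windows of that sequence also occurred in another member. The class medians were 10.99% for H1, 83.4% for H2A, 77.1% for H2B, 76.0% for H3 and 71.2% for H4, and 8 members had a coding sequence identical to that of another. The sources used here do not say how reads that fit several copies were counted. The 18 members with at most 50% of windows shared, whose reads are the better placed, summed 1.95-fold higher in the E14 knockout and 1.98-fold lower in the JB1 knockout. The other 48 summed 3.24-fold higher and 1.10-fold lower. The directions were thus the same in both kinds of members.

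H2A and H2B genes often lie head to head and share the stretch between their starts, and the members held 12 such neighbours, 11 on chromosome 13 and 1 on chromosome 3, with 167 to 305 bases between the genes in the tables. In E14 the H2A gene had the higher ratio in 12 of 12. The H2A ratios ran from 3.95 to 7.27 with a median of 5.18, and the H2B ratios from 1.14 to 2.76 with a median of 2.16. Hist1h2ah and Hist1h2bk, 177 bases apart, are the example with the highest H2A ratio of the 12. Hist1h2ah was 0.991 and 7.20 RPM in the E14 libraries (7.27-fold), and Hist1h2bk was 25.6 and 58.5 RPM (2.29-fold). Per coding kb, the H2B gene was above its H2A neighbour in 11 of 12 in each E14 library, by a median of 10.8-fold in the wild type and 4.93-fold in the knockout. The exception was Hist2h2ac with Hist2h2be. In JB1 the median of this quotient was 0.862 in the wild type and 0.728 in the knockout over 11 neighbours with reads in H2A. The JB1 H2A ratios ran from 0.713 to 1.52 and the H2B ratios from 0.510 to 1.82, and the H2A gene had the higher ratio in 7 of 11. The neighbours share copies and an upstream region, so the 12 are not independent.

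**Figure D4:**
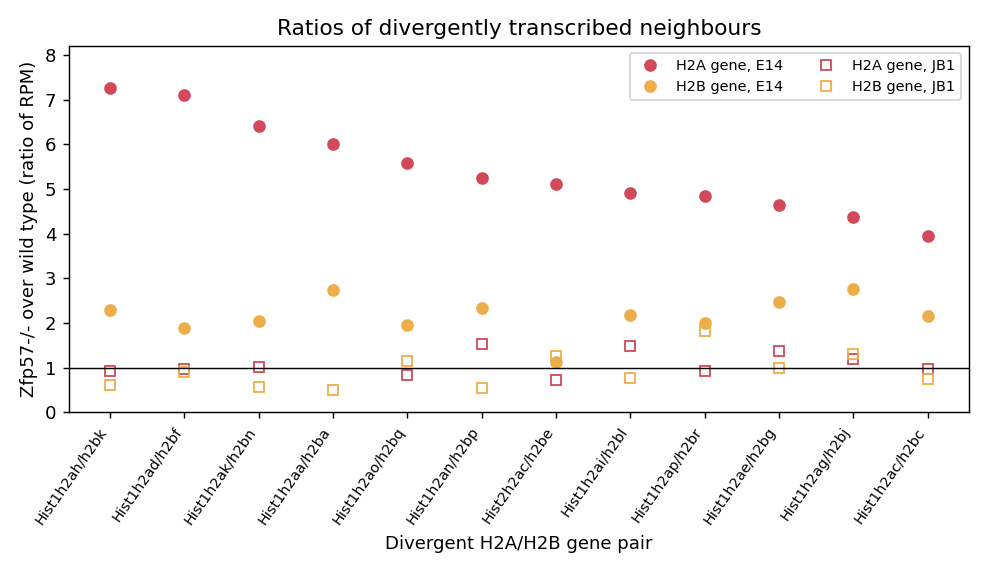
Ratio of the knockout to the wild-type level in RPM (vertical axis) for each of 12 head-to-head H2A and H2B neighbours (horizontal axis, ordered by the E14 H2A ratio), with E14 as filled and JB1 as open symbols. In E14 the H2A gene lies above its H2B neighbour in 12 of 12, while the JB1 symbols lie near the line at 1; Hist1h2aa has no JB1 value because it had 0 reads in both libraries.

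The effect shared by the lines was tested with limma, which fitted log2(RPM + 1) by line and by genotype and leaves 1 residual degree of freedom per gene. Of 12644 genes, 0 passed an adjusted p of 0.05 in either direction (0% of all genes tested), so no member did. Zfp57, the targeted gene, did not pass either, with an estimate of -2.77 and an adjusted p of 0.623 in limma. The lack of passing members therefore says little about them. Of the 63 members tested, 62 had a positive estimate, with a median of 0.84 beside 0.015 over all genes, and 8 had an unadjusted p under 0.05, against 7.95% of all genes tested. The filter on the mean was passed through the E14 levels, since 61 of the 67 members lay under 1 RPM in both JB1 libraries. The estimate is the mean of both lines' differences, so its sign followed E14 and is no evidence of a shared effect: for Hist1h4d it was 1.13, from 2.28 in E14 and -0.013 in JB1. The smallest adjusted p of a member in limma was 0.623, for Hist1h2br. Whether the knockout difference itself differed between the lines could not be tested, since no library is left to measure the spread.

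Genes for the production and processing of histone mRNA differed far less than the histone genes between the E14 libraries. Of 20 measured genes of histone mRNA 3′ processing and turnover, 15 were higher in E14 and 13 in JB1, with medians of 0.074 and 0.21 and none at least 2-fold different. Slbp, the stem-loop binding protein, was 108 and 142 RPM in E14, 1.32-fold higher, and 79.3 and 100.4 RPM in JB1, 1.27-fold higher. Npat, the coactivator of histone gene transcription, was 66.7, 65.2, 65.9 and 58.4 RPM. The U7-specific proteins Lsm10 (4.28, 4.78, 6.60 and 8.64 RPM) and Lsm11 (4.16, 3.32, 10.1 and 8.84 RPM) were low in all 4 libraries. The levels of these factors thus lay within 2-fold of each other between genotypes in both lines.

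Variant histones with ordinary poly(A) mRNAs give a comparison within the same libraries. Of 10 measured, 7 were higher in E14 (median 0.16) and 5 in JB1 (median -0.028), and none passed 2-fold with the added 1 RPM. H2afz, the H2A variant of gene starts, was 476, 651, 642 and 1047 RPM in the order of the libraries used above. H3f3b, a gene for the replacement histone H3.3, was 646, 892, 810 and 688 RPM. Their sums, 1625, 2076, 2057 and 2265 RPM, lay closer between the lines than those of the replication-dependent genes, which were 23.6-fold apart between the wild types. They were made up mainly of H2afz, H3f3b and H3f3a. H1fx, an H1 variant, was an exception at 0.495, 1.13, 16.6 and 19.9 RPM, with an E14 ratio of 2.29 (1.44 to 3.74).

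Of 25 genes of S phase and DNA replication, 21 were higher in E14 (median 0.19) and 17 in JB1 (median 0.14). None was at least 2-fold different in E14. In JB1, Ccne1, which encodes the G1/S cyclin E1, was 33.6 and 97.7 RPM, 2.91-fold higher, and Tk1, a thymidine kinase of S phase, was 14.1 and 29.5 RPM, 2.10-fold higher, while the histone sums there were lower. Of 11 histone chaperones and assembly factors, 7 were higher in E14 (median 0.067) and 9 in JB1 (median 0.12), with none beyond 2-fold. Of 15 listed RNAs whose mature form lacks a usual poly(A) tail, Malat1 alone was found in the tables, at 6413, 4656, 965 and 506 RPM. It was lower in the knockout in both lines, and like the histone genes it was higher in both E14 libraries than in both JB1 libraries. The part of poly(A) selection in the histone levels was not tested.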

How the data were processed

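Poly(A)-selected RNA of 4 libraries was sequenced with a stranded Illumina TruSeq kit, per the labels' protocols. The 2 tables the authors deposited, 1 per line, hold log2 values of RPM for 26130 genes with mm9 positions. TopHat2 2.0.8b, CASAVA 1.8.2 and cutadapt are named in the submitters' processing notes. The sources used here do not state the annotation, the counting tool, its strand setting or how multi-mapping reads were treated. Taking the lowest value of each library as 0.9 of a read, 100% of the higher values came out as whole reads (relative tolerance 0.0001), and these reads were used. The scaling totals were 50478922, 70691473, 69204114 and 96996280 reads, in the order E14 wild type, E14 knockout, JB1 wild type, JB1 knockout. A count of 0 allows up to 0.0594, 0.0424, 0.0434 and 0.0309 RPM (3 reads).

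RPM were summed by class and cluster. Ratios carry exact conditional binomial 95% intervals. A bound of 50 reads was met when either library of the line held them. Members were compared on log2(RPM + 1) at 1 RPM or more in a library of the line, with a 2-fold threshold, and the shared effect with limma 3.58.1 in R 4.3.3 (trend, mean of at least 1 RPM, Benjamini-Hochberg over all genes tested), checked on simulated data. The changes in the simulated data were the same in both lines, so that check does not cover differences that oppose each other between lines. Groups came from the sample titles. Nothing says that a group had more than 1 culture. Members named are, per class, the 3 with the most reads, those with the highest and lowest E14 ratio at 50 reads or more, all at 1 RPM or more in JB1, and all of Hist3 and Hist4, and genes of other lists at least 2-fold different, with Slbp, Npat, Lsm10, Lsm11 and Zfp57; others are said to be chosen after their values were seen or serve as examples. The members, lists and rules were chosen with earlier results of these data known. Alternatives were other scalings, pseudocounts, filters and sums without some members.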

Additional observations from a re-analysis of the deposited data

Results flagged for a closer look

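For 4 class sums and for all members together, the difference went in opposite directions in the lines, with both counting intervals clear of 1. That opposition is what singled them out, and the difference between the lines was not tested, since each group was 1 library. On the log2 scale of knockout over wild-type RPM, H1 was 0.65 in E14 and -1.16 in JB1, and H2A was 2.10 and -0.26. H2B was 1.12 and -0.18, H3 was 1.66 and -0.43, and all members together were 1.42 and -0.50. The JB1 interval of H4 included 1. In JB1 the H2A and H3 values turned positive without the genes of long span, and also without Hist3h2a and Hist2h3c1, respectively.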

How the results depend on the processing

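In E14 every class sum stayed higher in the knockout under all alternatives run. On the log2 scale, TMM scaling gave 0.61 for H1, 1.08 for H2B, 2.28 for H4 and 1.38 for all members, and scaling to the listed genes gave 1.44 for Hist1 and 1.40 for all members. Without the member with the most reads, the values were 0.80 (H1), 2.41 (H2A), 1.24 (H2B), 1.60 (H3) and 1.51 (all). Without members with a transcript of more than 1 exon they were 1.06 (H2B) and 1.44 (all). Alternatives added after seeing the data left out members with a span of 1000 bases or more, giving 0.54 (H1), 2.45 (H2A), 1.24 (H2B), 1.57 (H3) and 1.56 (all), or Hist1h1c, giving 0.56 (H1).

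In JB1, H2A turned from lower to higher without Hist3h2a, its member with the most reads (0.071), and without the long members (0.042), and H3 did so without the long members (0.35) and, added after seeing the data, without Hist2h3c1 (0.18). H4 without Hist1h4i was 0.0089. Without the long members H1 was -0.42, H2B -0.44 and all members -0.11; without Hist1h1c, H1 was -0.79 and all members -0.28. At least 2-fold lower were 2 of 6 measured members with a pseudocount of 0.5, against 278 of 13132 genes. With a pseudocount of 5 these were 0 members, against 83 genes. In E14, 57 of 65 measured members were at least 2-fold higher with a pseudocount of 0.5, against 183 of 12276 genes. With a pseudocount of 5 these were 36 members, against 44 genes.

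Without multi-exon members, which are all H2B, the shares in the order E14 wild type, E14 knockout, JB1 wild type, JB1 knockout were 28.8%, 16.6%, 38.0% and 25.0% for H1, 6.19%, 9.78%, 28.9% and 35.5% for H2A, and 35.5%, 27.1%, 11.7% and 14.2% for H2B. For H3 they were 11.3%, 13.1% and, in the JB1 knockout, 11.5%, and for H4 18.2%, 33.5% and 13.8%. The causes were not tested beyond the members left out.

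The 25 named members stayed higher in E14 in 75 of 75 alternatives, and none changed sign in JB1. These counts say little about robustness, because a different pseudocount cannot change the sign of a member. The remaining alternative, scaling to the listed genes, shifted the log2 scale by only 0.0165 in E14 and 0.0072 in JB1. Under it the E14 value of Hist2h2be, the smallest of the named members, went from 0.058 to 0.053. In limma 0 members passed under all 4 alternatives. The planned edgeR test was not run, because the deposited values are log2 values. No pairing beyond that by line was possible, because the labels carry no replicate numbers. The line term of the limma fit already compares genotypes within a line. With 1 library per group none could be left out. Low histone levels, not library depth, limit JB1, where 61 members lay under 1 RPM.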
